A study of Branchiostoma belcheri with 2 samples.

Results

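Amphioxus microRNAs (miRNAs) with registry numbers in the 4000s were measured in the gill of *Branchiostoma belcheri*, the Chinese lancelet, an invertebrate relative of the vertebrates. They were chosen by probe name alone: a *B. belcheri* (bbe) or *Branchiostoma floridae* (bfl, the Florida amphioxus) prefix followed by a 4-digit number beginning with 4. The rule found 100 of the 1686 miRNA probes of the array, 24 with the bbe and 76 with the bfl prefix, and they stand for 52 miRNA numbers. All but 2 lie between miR-4856 and miR-4906, the exceptions being bfl-miR-4057 and bfl-miR-4928. All 100 sequences differ from each other, with lengths of 19 to 24 bases. Each group was 1 array, the control array from adults given 15 µl of PBS and the LPS array from adults given 15 µl of lipopolysaccharide (LPS, 1 mg/ml in PBS) into the cavum and sampled at 12 h. The control label gives no time, and the sources used here do not give how many animals each array represents. Since both arrays carry miRNA probes only, the gill label was not checked against protein-coding markers.

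A miRNA is cut from a hairpin RNA whose 5p and 3p arms can each be loaded into an Argonaute protein, which the miRNA then guides to messenger RNAs. Pairing rests mainly on the seed, bases 2 to 8 from the 5′ end, so a change in the seed or a shifted 5′ end can change the set of targets. miRNA numbers are given in order of registration, and the amphioxus names shown here have, for the most part, no assigned function. The amphioxus gill is a ciliated pharyngeal basket that filters seawater and is in steady contact with microbes, and LPS is a cell-wall lipid of Gram-negative bacteria that animals sense as a sign of infection.

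The sequences below carry the results. They are the target sequences given in the scanner files, written 5′ to 3′ with the seed in capitals. The first 5 belong to miR-4866 and miR-4877, the miRNAs with the largest called difference in each direction.
bbe-miR-4866-3p: gCUUAGCAgugcaagugugac
bfl-miR-4866-3p: gCUCAGCAgugcaagugugaca
bfl-miR-4866-5p: uCACACUUguacuucuuagcau
bbe-miR-4877-3p: aAGUAGUAguugaacuaucuuc
bfl-miR-4877: aGUAGUAGuugaacuaucuucu
The next 5 are the miR-4859-3p pair and bfl-miR-4874-3p, all called higher on the LPS array, and the miR-4888 pair, of which the bbe probe alone was called.
bbe-miR-4859-3p: uGACAGUAaugcccgcugacu
bfl-miR-4859-3p: uGACAGUAaugcccgcugacuu
bbe-miR-4888-5p: uGCAGAGCuugugcgauuggcg
bfl-miR-4888: uGCAGAGCuugugcgauuggcgc
bfl-miR-4874-3p: cUGGCUGGuuggugcaaacagg
The last 3 show a seed that a 4000-series miRNA shares with miR-96, a miRNA of vertebrate sensory cells.
bfl-miR-4871-3p: uUUGGCACugguacuuuggagu
dre-miR-96: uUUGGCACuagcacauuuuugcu
sko-miR-96-5p: uUUGGCACuagcacauuuugc

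A probe counted as detected when the mean intensity of its 2 repeat spots lay above a threshold set by the empty spots (their 95th percentile), which was 122 scanner units for the control and 143 for LPS. Of the 100 probes, 34 were detected on both arrays, 34 on the control array only, 1 on the LPS array only (bfl-miR-4900b) and 31 on neither. One-sided detection leaned the same way over all 1686 probes, with 345 passing for the control alone and 36 for LPS alone. The bbe probes were detected on both arrays in 12 of 24 cases and the bfl probes in 22 of 76. Among amphioxus probes numbered in the 2000s, 30 of 48 were detected on both arrays. Among those numbered under 1000, mostly conserved families, the count was 75 of 112. For probes of other species numbered in the 4000s it was 23 of 581, and over all probes it was 303 of 1686. The RNA was of *B. belcheri*, and 57 of the bfl probes had no bbe counterpart on the array. Of these, 14 were detected on both arrays and 24 on neither, against 8 and 3 of the 19 bfl probes with a counterpart.

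The probes detected on the control array only were dim there, with a median of 129 scanner units, and 31 of 34 were under 150. The lowest was bbe-miR-4857-3p at 122, and the highest was bbe-miR-4867-3p at 212. Their median LPS intensity was 104. For a bound, a normalized LPS signal under the lowest detected signal of the LPS array was raised to that floor. Only bbe-miR-4867-3p (1.14-fold lower with LPS) and bfl-miR-4901 (lower by at least 1.01-fold) had a bound above 1. The value of bbe-miR-4867-3p is its plain normalized fold, since its LPS signal lay above the floor. Both bounds were computed with quantile normalization only, and the sign of the log2 difference depended on the scaling. With median scaling these probes stood at 0.71 and 0.40, and with calibration spots at 0.47 and 0.16, on the other side of 0. They stayed below 0 with loess (-0.09 and -0.75), with no normalization (-0.42 and -0.72) and in the deposited table (-0.04 and -5.30). Losing detection was therefore not a measured decrease of any stated size for the remaining 32.

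The level of empty spots depended on the place on the array, and between the first and last blocks of rows the dim 4000-series probes moved with it. In array rows 1 to 32 the empty spots had a median of 112 for the control and 80.9 for LPS, and the probes there not detected on both arrays had medians of 125 and 87.0. In rows 97 to 128 the empty spots had medians of 103 and 111, and the dim probes there, only 2, had medians of 119 and 126. Between these blocks the LPS medians did not move together. In rows 33 to 64 and 65 to 96 they were 101.5 and 98.9 for empty spots, and 101 and 107 for dim probes. Rows 1 to 32 held 16 of the 34 probes detected on the control array only, beside 34 of all 100 probes of the group. With a threshold from empty spots within 24 rows, chosen after seeing the data, 98 of the 100 probes kept the same detection state. That count includes probes detected on 1 array or on neither. The part of this gradient in the differences of dim probes was not tested.

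**Figure D1:**
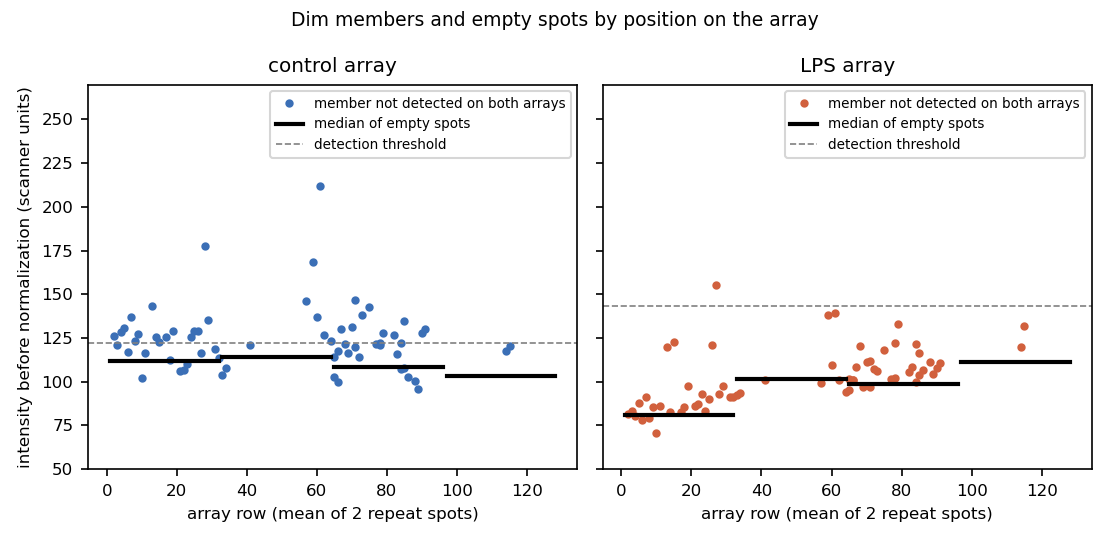
Mean intensity of the 66 probes not detected on both arrays (points, scanner units, linear axis) against their array row, with the median of empty spots in 4 blocks of 32 rows (black bars) and the detection threshold (dashed). On the LPS array the dim probes of rows 1 to 32 lie near the empty-spot median of 80.9, and those further down lie higher.

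Intensities were background-corrected and quantile-normalized between the arrays, and log2 differences below are LPS minus control in normalized intensity. A value after ± is the SE from the 2 repeat spots of each array and covers technical error alone. With 1 array per group there was no test and no replicate check, and treatment and array cannot be told apart. To be called higher or lower, a probe had to pass detection on 1 array or both, differ by 2-fold or more, and have repeat spots that did not overlap between the arrays. In bulk RNA, fewer cells of a type and less RNA per cell cannot be told apart.

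Of the 69 4000-series probes detected on at least 1 array, 10 were higher, 1 was lower and 58 were not called. That is 14.5% higher and 1.45% lower, beside a background of 10.5% higher and 10.5% lower over the 684 detected probes of the whole array. All 11 called probes were detected on both arrays, where 10 of 34 compare with 19.5% higher over all 303 such probes, and 1 of 34 with 13.9% lower. The median log2 difference was -0.08 over the 69 probes and -0.10 over all 684. Amphioxus probes numbered in the 2000s gave 4 higher and 1 lower of 41, those numbered under 1000 gave 20 higher and 6 lower of 94, and other species' probes numbered in the 4000s gave 11 higher and 6 lower of 136.

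The split of the calls moved with the scaling. Median scaling gave 34 higher against 1 lower of the 69, beside 314 against 57 of all 684 detected probes. Calibration spots gave 16 against 2, beside 177 against 63. Loess gave 4 against 4, beside 30 against 85. Without normalization there were 3 against 8, beside 25 against 128. In the authors' deposited table, which has 1 value per probe and so no check on repeat spots, it was 21 against 24, beside 161 against 289, and 22 of those 24 were probes detected on the control array only. The median of all 684 detected probes was 0.94 with median scaling, 0.70 with calibration spots, -0.17 with loess, -0.18 with no normalization and -0.41 in the deposited table. The median of the 69 probes lay 0.03 above that of all detected probes with median scaling, calibration spots and no normalization, which differ by a constant only, and 0.09 above with loess. In the deposited table the median of the 69 was 0.02. Before normalization, 26 of the 34 probes detected on both arrays were dimmer on the LPS array, whereas 25 of the 34 had a log2 difference above 0 after it.

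**Figure D2:**
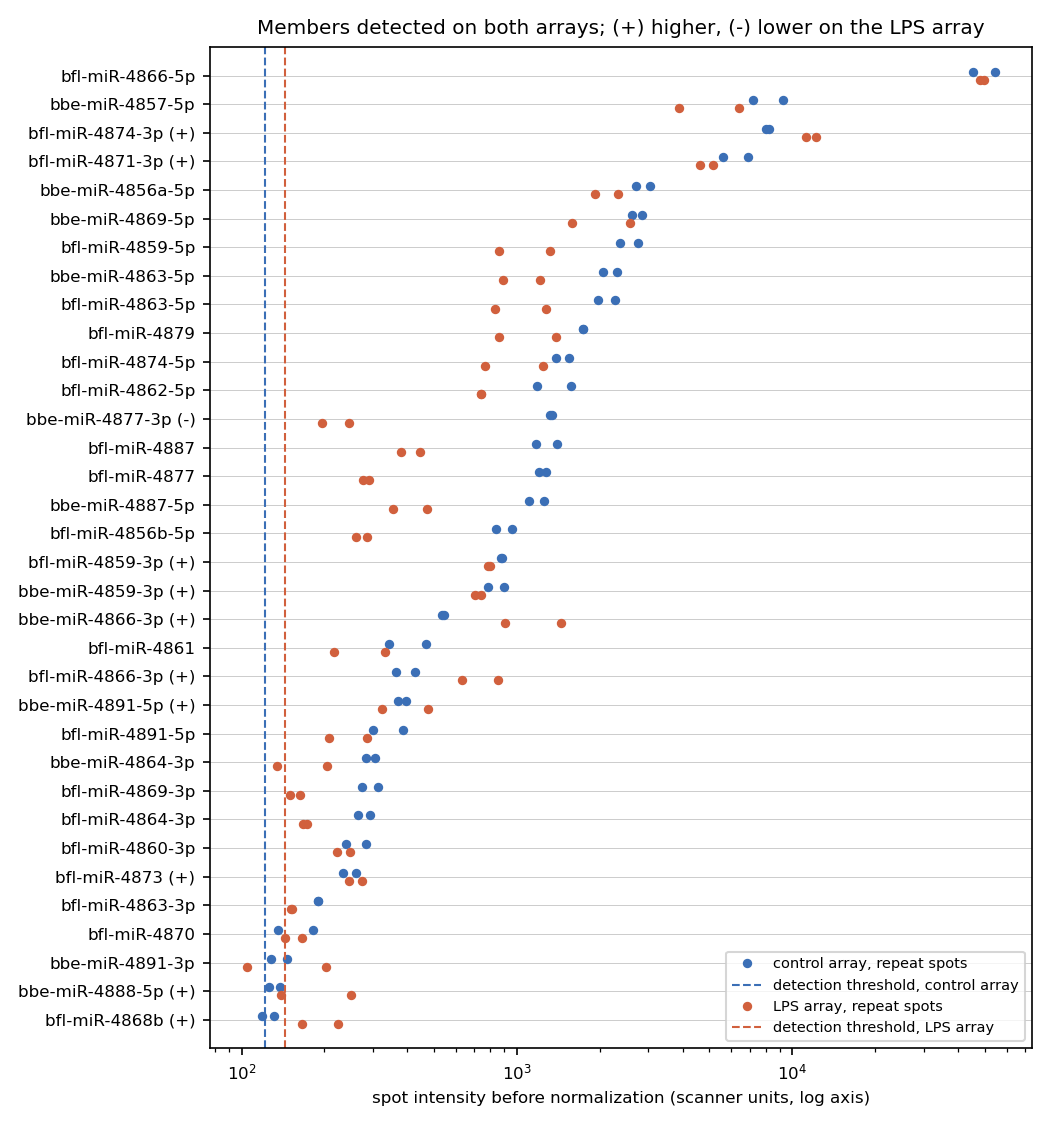
Intensity of each repeat spot before normalization (scanner units, log axis) for the 34 probes detected on both arrays, with control spots in blue, LPS spots in red and detection thresholds dashed. Both miR-4866-3p probes and bfl-miR-4874-3p have LPS spots to the right of their control spots, and both miR-4877 probes have them far to the left.

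Both probes for the 3p arm of miR-4866, a miRNA with no assigned function, had the largest positive differences. The bbe probe read 536 and 541 on the control spots and 908 and 1451 on the LPS spots before normalization. The bfl probe read 427 and 364 on the control array and 857 and 633 on the LPS array. The spots of the arrays did not overlap for either probe. The normalized difference was 2.41 ± 0.36 for the bbe probe (5.31-fold) and 2.01 ± 0.29 for the bfl probe (4.02-fold). With no normalization the values were 1.18 and 1.02, and these were the lowest among the 5 other scalings. Both probes are 7 edits from the closest probe outside the group, dre-miR-139. They differ from each other by the substitution C4U (bfl base, position from the 5′ end of the bfl sequence, bbe base), which lies in the seed, and by 1 extra base at the 3′ end of the bfl probe.

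The opposite arm was not called. bfl-miR-4866-5p was the brightest 4000-series probe on both arrays, at 54240.15 and 45219 on the control spots and 47885 and 49789.8 on the LPS spots. Before normalization the LPS spots thus lay within the range of the control spots. Its normalized difference was -0.29 ± 0.14, under 2-fold. It was -0.02 with no normalization and 1.23 in the authors' deposited table. The 3p arm exceeded the 5p arm by 2.30 ± 0.32 in log2 difference, by 1.65 with loess, by 1.04 in the scalings that differ by a constant, and by 1.55 in the deposited table. These spots lie near the top of the control scan, and whether its response was linear there was not tested. None of the bbe probes that the name rule found on the array was for the 5p arm of miR-4866.

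miR-4877 gave the only decrease among the calls. bbe-miR-4877-3p read 1316 and 1335 on the control spots and 197 and 245 on the LPS spots, a normalized difference of -1.61 ± 0.27 (3.05-fold lower). bfl-miR-4877 read 1202 and 1277 on the control array and 290.4 and 277 on the LPS array. Its spots did not overlap either, but the normalized difference of -0.89 ± 0.10 stayed under 2-fold, so it was not called. With no normalization the values were -2.59 and -2.12, and with loess -1.97 and -1.50, where both probes passed 2-fold. The 2 sequences overlap without a mismatch, but the bbe sequence has 1 extra base at its 5′ end, which shifts the seed by 1 base.

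Next in size was bfl-miR-4874-3p, among the 5 brightest 4000-series probes on either array. It read 8204 and 8021 on the control spots and 12216 and 11245 on the LPS spots, and its normalized difference was 1.57 ± 0.06 (2.96-fold). Both LPS spots were above both control spots before any normalization, and the difference was 0.54 with no normalization. The other arm, bfl-miR-4874-5p, stood at 0.63 ± 0.35 and was not called. It was at -0.56 with no normalization.

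The miR-4859-3p probes differ by 1 base at the 3′ end and share their seed. bbe-miR-4859-3p read 783 and 897 on the control spots and 707 and 738 on the LPS spots. bfl-miR-4859-3p read 886 and 875 on the control array and 783 and 799.7 on the LPS array. Both were dimmer on the LPS array before normalization and were called higher after it, at 1.11 ± 0.09 and 1.23 ± 0.03. With no normalization they were below 0, at -0.17 and -0.11. The 5p arm, bfl-miR-4859-5p, was at 0.08 ± 0.36 and was not called.

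bfl-miR-4871-3p has the seed of miR-96 and of several miR-182 probes, relatives that lie with miR-183 in a cluster known from vertebrate sensory hair cells and photoreceptors. It read 6902 and 5591 on the control spots and 5153 and 4635 on the LPS spots, and its normalized difference was 1.09 ± 0.14. It was at -0.34 with no normalization, below the median of all detected probes there (-0.18), and at 0.03 with loess. Beyond the seed it is 7 edits from dre-miR-96 and from sko-miR-96-5p. Those 2 probes, detected on both arrays, stood at -0.96 ± 0.21 and 0.19 ± 0.55 and were not called. None of the 3 amphioxus miR-182 probes with this seed was detected on the LPS array.

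The other 4 higher probes were dim or had uneven repeat spots. bbe-miR-4891-5p read 395 and 369.5 on the control spots and 475 and 322 on the LPS spots (1.20 ± 0.27), so the intensities overlapped before normalization. bfl-miR-4873 read 261 and 233 on the control array and 274 and 246 on the LPS array, which also overlapped, and passed 2-fold by a narrow margin (1.00 ± 0.12). bfl-miR-4868b read 119 and 131 on the control array and 166 and 223 on the LPS array (1.24 ± 0.31). Its control intensity was just above the detection threshold, and it was no longer counted with the 99th percentile of empty spots as threshold. bbe-miR-4888-5p read 138 and 126 on the control spots and 139 and 249 on the LPS spots (1.11 ± 0.66). Its call rests on 1 LPS spot: with the first repeat spot alone the difference was 0.38, with the second alone 1.84.

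Just under the 2-fold threshold stood the 5p arms bbe-miR-4869-5p (2.00-fold, under the threshold by less than the rounding, 1.00 ± 0.35) and bbe-miR-4856a-5p (1.99-fold, 0.99 ± 0.17). Both turned below 0 with no normalization, at -0.42 and -0.43. bbe-miR-4869-5p shares its seed with bbe-miR-4857-5p, which stood at 0.55 ± 0.39. That makes 1 of 3 seeds found under more than 1 miRNA number in this range. The others join bfl-miR-4860-3p with bfl-miR-4865-3p, and bfl-miR-4861 with bfl-miR-4876.

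**Figure D3:**
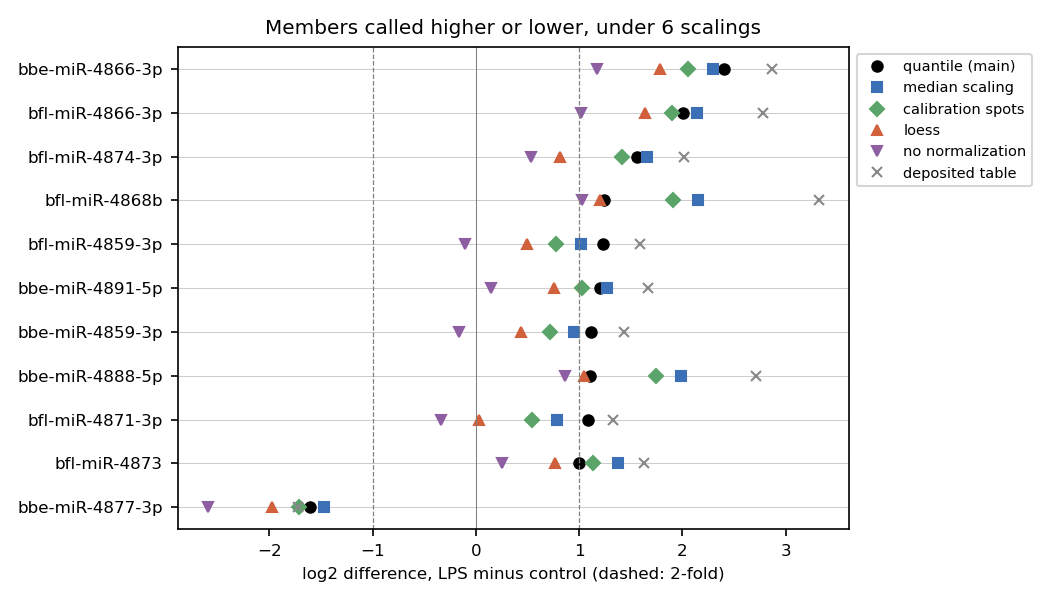
Log2 difference (LPS minus control) of the 11 called probes under quantile normalization and 5 other scalings, with 0 as a solid and 2-fold as dashed lines. Both miR-4866-3p probes and bfl-miR-4868b stay above 1 and bbe-miR-4877-3p stays below -1 in all 6, while both miR-4859-3p probes and bfl-miR-4871-3p fall below 0 with no normalization.

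Probes for the same miRNA in both species allowed a comparison of similar sequences, 1 to 5 edits apart, on the same arrays. The most distant pair was bbe-miR-4889b-3p with bfl-miR-4889b. There were 19 such pairs, none identical, 9 of them without a mismatch where they overlap, and 7 with different seeds. In 4 pairs the 5′ ends are shifted against each other. The bbe-miR-4868c-3p sequence is 1 substitution (A14G) from bfl-miR-4868c-5p, so the arm names of that miRNA differ between the species. Both probes of a pair were detected on both arrays in 7 cases, 1 probe only in 3, and neither in 9. In the 7 fully detected pairs the differences had the same sign in 7 of 7, with a median gap of 0.18 log2 units. The shared sign did not hold in every scaling: miR-4891-5p stood at 0.15 (bbe) and -0.37 (bfl) with no normalization. In the authors' deposited table miR-4864-3p stood at -0.12 and 0.03, and miR-4887 at 0.09 and -0.39. With the second repeat spot alone the signs also differed for miR-4864-3p and miR-4891-5p. In 6 of the 7 the gap was within 2 SE over repeat spots, and the exception was miR-4877, with a gap of -0.72 ± 0.29 (bbe minus bfl). The probes of a pair can bind the same RNA, so these are not separate measurements of the treatment.

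Among the fully detected pairs with no called probe, the smallest gap was that of miR-4863-5p, at 0.27 ± 0.19 for the bbe and 0.28 ± 0.32 for the bfl probe. miR-4887 followed at -0.14 ± 0.21 and -0.27 ± 0.23, and miR-4864-3p at -0.25 ± 0.46 and -0.08 ± 0.07. None of these 6 probes was called. For miR-4891-5p the bbe probe was called higher (1.20) and the bfl probe was not (0.42 ± 0.40), with a gap of 0.78 ± 0.48. For miR-4888, whose probes differ by 1 base at the 3′ end, the bfl probe read 151 and 136 on the control spots and 133 and 107 on the LPS spots and stood at -0.04 ± 0.25. The gap to its bbe partner was 1.15 ± 0.70, which is within 2 SE.

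**Figure D4:**
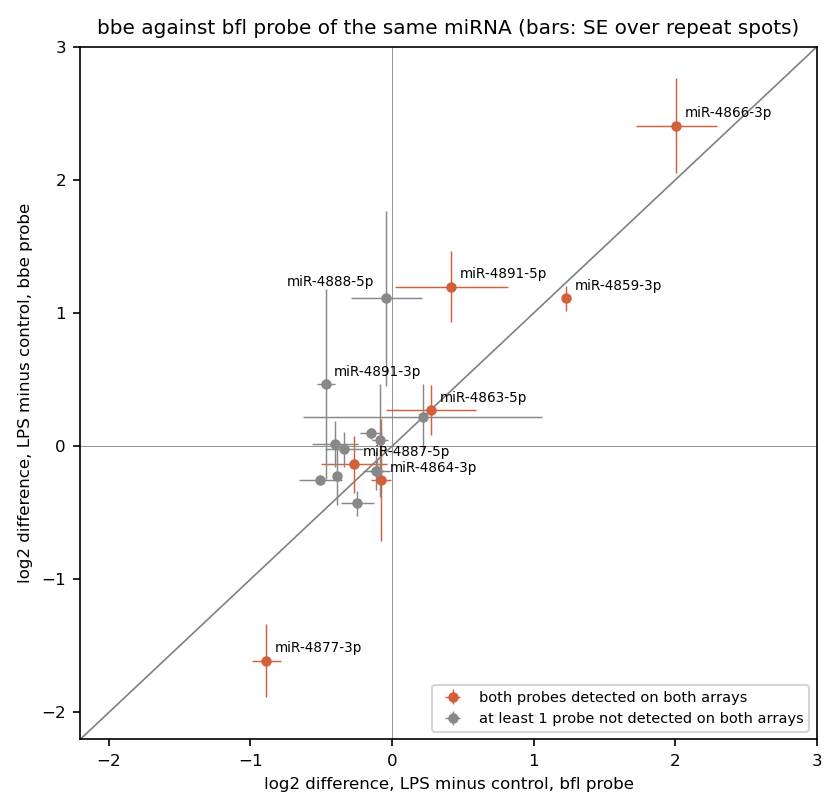
Log2 difference (LPS minus control) of the bbe probe against that of the bfl probe for 19 miRNAs, with bars for the SE over repeat spots and the line of equal values. The 7 pairs detected throughout (red) lie on the same side of 0 on both axes, from miR-4877-3p at the lower left to miR-4866-3p at the upper right.

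Both arms of a miRNA were on the array for 19 names of 1 species each. In 5 of them both arms were detected on both arrays, in 10 only 1 arm was, and in 4 neither was. Intensities of 2 probes also depend on how each binds its target, so the arms are compared here by their differences and not by their levels. Besides miR-4866, miR-4859 and miR-4874 in the bfl set, the 5 were bfl-miR-4863 and bbe-miR-4891. The 3p minus 5p difference was 1.15 ± 0.36 for bfl-miR-4859 and 0.94 ± 0.35 for bfl-miR-4874. It was -0.13 ± 0.32 for bfl-miR-4863 and -0.73 ± 0.76 for bbe-miR-4891, both within 2 SE of 0. bbe-miR-4891-3p read 203 and 105 on the LPS spots, so its detection on that array rests on 1 spot.

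Among names with 1 detected arm, the 5p arm was the detected one for bbe-miR-4856a, bbe-miR-4857, bbe-miR-4869, bfl-miR-4856b, bfl-miR-4862 and bfl-miR-4891. The 3p arm was detected for bbe-miR-4864, bfl-miR-4864, bfl-miR-4860 and bfl-miR-4871. bbe-miR-4857-5p read 9240 and 7182 on the control spots and 6400 and 3887 on the LPS spots, so both LPS spots were below both control spots. After normalization it stood at 0.55 ± 0.39 with overlapping spots, and it was at -0.36 with loess and -0.70 with no normalization. bfl-miR-4856b-5p, from 962 and 839 to 286 and 260.1, stood at -0.41 ± 0.12. It was lower by more than 2-fold with loess (-1.07) and with no normalization (-1.69).

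**Figure D5:**
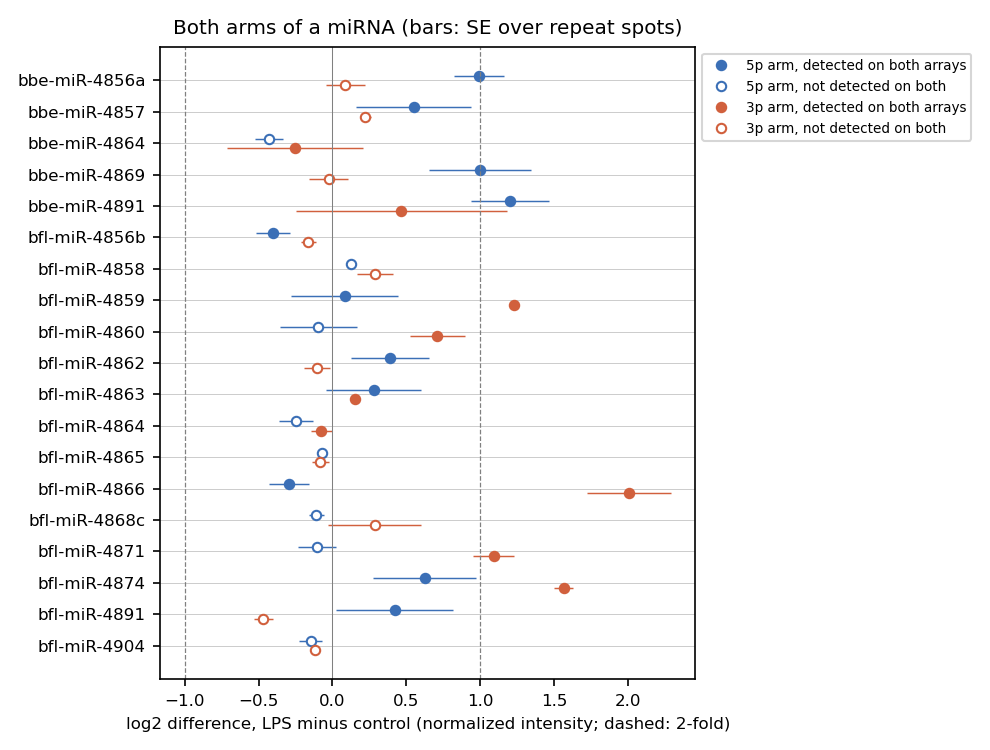
Log2 difference (LPS minus control) of the 5p arm (blue) and the 3p arm (red) of 19 miRNAs, with bars for the SE over repeat spots, filled points for arms detected on both arrays and dashed lines at 2-fold. The widest gap between detected arms is that of bfl-miR-4866.

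The 23 probes detected on both arrays and not called comprised 10 whose spots overlapped between the arrays and 13 whose spots did not overlap but whose difference stayed under 2-fold. No such split is given for all probes, so these counts only state why each of the 23 was not called. bfl-miR-4900b, the only probe detected on the LPS array alone, has the seed of miR-22. It read 112 and 121 on the control spots and 229 and 81.4 on the LPS spots, so its detection rests on 1 spot (0.69 ± 1.04). bfl-miR-4057, the lowest number of the group, shares its seed with its namesake of the sea squirt *Ciona* (cin-miR-4057-3p), and both were undetected on both arrays. bfl-miR-4868b shares its seed with bfl-miR-4868a and bfl-miR-4868c-3p, which were undetected on both arrays as well. The 31 probes undetected on both arrays had log2 differences from -0.43 to 0.45 that carry no measured level, and 27 of them had the bfl prefix.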

How the data were processed

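Each of 2 single-colour Cy3 arrays held 3372 spots of 1686 miRNA probes and 304 empty spots. Per the labels, total RNA was poly(A)-tailed and ligated to a Cy3 tag. Per the file headers, the deposited spot value is the median intensity, on a linear scale. The authors also deposited a table of 1 processed intensity per probe, whose background and scaling steps the sources used here do not state. Its values are linear, with a column median of 6.88 (control) and 3.42 (LPS) and a lowest value of 0.01. Over detected probes they ranked like the scanner values (Spearman's rho 0.985 and 0.978, across probes of 1 array).

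Background correction by normexp (offset 50, all spots in the fit) used limma 3.58.1 under R 4.3.3. Values were log2-transformed, quantile-normalized over miRNA spots and averaged over repeat spots. The calculation was run on simulated data, with the control array at a constant scale, changed probes and spot noise as the LPS array. That simulation had no difference in scale that varied with intensity or array row, so it does not test how these affect the calls. Groups came from the agent label. Probes of the same number, letter and at most 5 edits formed a species pair. Every called probe, pair, arm partner, seed group, the 5 brightest probes and the 5 largest differences each way could be named. Members followed from probe names alone, but the name rule, lists and alternatives were chosen with earlier results of these data known. Alternatives were offsets of 16 and 200, no background correction, 4 scalings, stricter detection, other fold thresholds, single repeat spots, and the deposited table as log2 after adding 1. On 1 array per group no p-value is given, and the number of arrays limits the precision.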

Additional observations from a re-analysis of the deposited data

How the results depend on the processing

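Of the 110 values of the 11 called probes under 10 alternatives, 107 kept their sign. The 3 that turned, all with no normalization, were bbe-miR-4859-3p (-0.17), bfl-miR-4859-3p (-0.11) and bfl-miR-4871-3p (-0.34), and the cause was not tested. The count of kept signs was in part decided in advance. A call required spots that did not overlap between the arrays, which fixes the sign for either repeat spot alone. Several scalings move all probes by the same amount and are not separate checks. The probes had also been selected for a 2-fold difference in these same data. Counts over all 684 detected probes stand in parentheses. The count of higher probes, 10 (72) in the main setting, was 34 (314) with median scaling, 16 (177) with calibration spots, 21 (161) in the deposited table, 5 (44) with an offset of 200, 4 (30) with loess, 3 (25) with no normalization and 2 (18) with a 3-fold threshold. The count of lower probes, 1 (72) in the main setting, was 8 (128) with no normalization, 4 (85) with loess, 24 (289) in the deposited table and 3 (125) with a 1.5-fold threshold. It was 2 with an offset of 16 (98), with calibration spots (63) and with the second repeat spot alone (79). The median of detected probes, -0.08, was 0.98 with median scaling, 0.73 with calibration spots and 0.46 over probes detected on both arrays only. The other 36 summary values moved by at most 1.5 times (counts) or by less than the repeat-spot error (medians). At that limit were 15 higher probes (86) with the first repeat spot alone and 15 (110) with a 1.5-fold threshold. The 99th percentile of empty spots left 54 probes detected, with 9 higher and 1 lower. Of the 54, 25 passed for both arrays and 29 for the control alone. Among all 1686 probes the matching counts were 229 and 322, and 3 more passed for LPS alone. No count of calls over all probes is given here at this threshold, so 9 of 54 has no background beside it. The threshold from nearby empty spots, chosen after seeing the data, left all 11 calls in place. No paired analysis was possible because each group had 1 array. Signal near background limits every statement on the 66 probes not detected on both arrays.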
